A study of Mus musculus with 20 samples.

Results

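The 39 genes described here answer to interferon or build the MHC class I pathway, and they were taken by name from the kidney count table of the *Pkd2* study. All 39 were among the 24411 genes of the table, and all 39 were among the 14820 genes that passed the filter on low counts. By role they were 5 transcriptional regulators, 8 sensors and binders of RNA, 11 genes of the ISG15 system and other antiviral factors, 5 interferon-inducible GTPases, 7 genes of MHC class I presentation and 3 immunoproteasome subunits.

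RNA was sequenced from whole kidneys of 20 mice at P125, 1 library per mouse. There were 5 male controls (MC1 to MC5), 5 male mutants (MM1 to MM5), 5 female controls (FC1 to FC5) and 5 female mutants (FM1 to FM5), and they came from 3 litters (A, B and C). The mutants carried *Pkd2* fl/fl together with *Pax8* rtTA and *TetO* Cre, so that doxycycline switched on Cre in renal tubular cells, where the *Pax8* promoter is active. The labels of the controls say only control. By the paper, littermate controls lacked *Pax8* rtTA or *TetO* Cre, and those of its earlier inductions are written as *Pkd2* fl/fl with the other of these. All mice, controls included, were injected with doxycycline hyclate at 50 mg per kg at P27 to P29. The mice were C57BL/6. Because whole kidney was sequenced, fewer cells of a type and less RNA per cell cannot be told apart.

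Library totals ran from 11307741 to 19324073 counts. One library stood apart: FM4 had counts in 14850 genes, of which 76 had a single count, while the other 19 libraries had counts in 16776 to 17724 genes, of which 708 to 859 had a single count. *Pkd2* was lower in every mutant than in every control of its sex, with a log2 fold change of -1.32 ± 0.08 (SE) in males and -0.80 ± 0.18 (SE) in females. The ratio of the weight of 1 kidney to body weight (KBW) was 0.836% to 1.46% in female mutants and 1.22% to 2.15% in male mutants, and 0.555% to 0.896% in controls. Tubule markers were abundant, with summed CPM (counts normalised to library size) of 6 proximal tubule markers between 6512 and 15588 in every library.

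Interferons are secreted proteins that bind cell surface receptors and activate JAK kinases, which phosphorylate STAT proteins. A complex that contains STAT2 and IRF9 binds the interferon-stimulated response element (ISRE), and the gamma-activated sequence (GAS) is bound after interferon gamma. The target genes block virus replication, and several of them raise the display of peptides on MHC class I, for which the immunoproteasome cuts proteins, the TAP transporter carries the peptides into the endoplasmic reticulum, tapasin loads them, and beta-2 microglobulin holds the complex at the surface.

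The bases upstream of 8 of the genes are shown because the ISRE and the GAS are the elements through which interferon signals are known to act on genes of this kind. Of the 39 genes, 31 were matched by symbol to a RefSeq promoter (250 bases before to 50 after the start of the gene, GRCm38.p6). *Mx1*, *Mx2*, *Oas2*, *Nlrc5*, *Usp18*, *Rtp4*, *Parp14* and *Tap2* were not matched. The ISRE was searched as GAAA, 2 bases of any kind and GAAA on both strands, and the GAS as TTCNNNGAA, which reads the same on both strands. Where a gene had more than 1 promoter, a match in any of them was counted, and the lines below show the one with the most ISRE matches, then GAS matches. The first was present in 15 of 31 matched genes (48.4%), against 3.99% of all 27025 genes with a promoter, and the second in 10 of 31 (32.3%), against 9.55% of those genes. Either was present in 21 of 31 (67.7%), against 12.9% of those genes. All 8 genes shown have a match, so they do not stand for the matched genes without one. In each line below, bases 160 to 1 before the gene start are written 5′ to 3′ on the strand of the gene, and capitals mark the letters of either motif.
Isg15: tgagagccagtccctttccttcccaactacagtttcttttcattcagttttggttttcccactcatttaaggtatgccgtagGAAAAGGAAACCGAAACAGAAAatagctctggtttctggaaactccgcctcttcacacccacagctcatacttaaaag
Ifit1: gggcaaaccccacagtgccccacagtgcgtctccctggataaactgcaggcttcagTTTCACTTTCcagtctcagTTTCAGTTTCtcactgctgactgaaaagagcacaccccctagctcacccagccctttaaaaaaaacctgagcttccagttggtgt
Ifit3: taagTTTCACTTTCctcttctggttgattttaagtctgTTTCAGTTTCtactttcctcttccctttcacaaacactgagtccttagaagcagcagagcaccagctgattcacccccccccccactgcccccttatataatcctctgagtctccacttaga
Bst2: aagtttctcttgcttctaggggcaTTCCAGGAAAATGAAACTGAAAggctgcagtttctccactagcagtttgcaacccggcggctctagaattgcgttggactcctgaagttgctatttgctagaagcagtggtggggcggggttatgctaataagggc
Irgm1: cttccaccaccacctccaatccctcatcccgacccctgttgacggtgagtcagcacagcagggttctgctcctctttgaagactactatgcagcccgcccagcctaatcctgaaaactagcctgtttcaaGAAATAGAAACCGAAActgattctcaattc
Gbp3: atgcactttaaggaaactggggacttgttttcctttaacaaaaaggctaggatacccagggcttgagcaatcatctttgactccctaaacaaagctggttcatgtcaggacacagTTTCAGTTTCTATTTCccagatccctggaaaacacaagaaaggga
B2m: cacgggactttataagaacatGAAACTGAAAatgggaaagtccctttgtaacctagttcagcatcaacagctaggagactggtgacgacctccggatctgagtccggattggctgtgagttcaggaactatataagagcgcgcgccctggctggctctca
Irf1: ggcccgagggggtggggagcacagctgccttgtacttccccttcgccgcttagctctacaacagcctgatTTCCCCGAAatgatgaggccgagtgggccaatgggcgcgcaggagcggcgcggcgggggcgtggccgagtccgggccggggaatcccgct

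The windows lie at chr4:156200819-156200978 on the minus strand for *Isg15*, chr19:34640729-34640888 on the plus strand for *Ifit1*, chr19:34583369-34583528 on the plus strand for *Ifit3* and chr8:71537473-71537632 on the minus strand for *Bst2*. Those of the others are chr11:48871421-48871580 on the minus strand for *Irgm1*, chr3:142559884-142560043 on the plus strand for *Gbp3*, chr2:122147527-122147686 on the plus strand for *B2m* and chr11:53769854-53770013 on the plus strand for *Irf1*. The *Isg15* window held 3 overlapping matches to the ISRE in a single run of capitals. *Ifit1* and *Ifit3* each held 2 separate matches on the opposite strand, *Bst2* held 2 overlapping ISRE matches, of which 1 also overlaps a GAS match, and *Irf1* held a GAS match alone. By role, an ISRE match was present in 5 of 5 GTPases, 5 of 7 matched RNA sensors and binders and 3 of 6 matched antiviral genes, but in 1 of 5 regulators (*Stat2*), 1 of 5 matched class I genes and 0 of 3 immunoproteasome subunits. A match is a run of letters, not a measured binding site.

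Per kilobase of exon, the members covered a wide range of levels. The 2 chains of the class I molecule were the most abundant, with means over all 20 mice of 416 CPM per kb for *B2m* and 138 CPM per kb for *H2-K1*. *Bst2*, which tethers budding virus to the cell surface, had 38.5 CPM per kb, and *Tapbp*, the gene of tapasin, had 32.2 CPM per kb. The lowest were the dynamin-like GTPases *Mx1* and *Mx2*, with 0.510 and 0.524 CPM per kb, of which *Mx2* is annotated as a polymorphic pseudogene in GENCODE M21. Their lowest count in a library was 6 for *Mx1* and 5 for *Mx2*. How reads shared by near-identical genes were counted is not given in the sources used here, so *H2-K1* and *H2-D1*, *Oas1a*, *Ifit3* and the *Gbp* genes are uncertain to that extent.

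**Figure D1:**
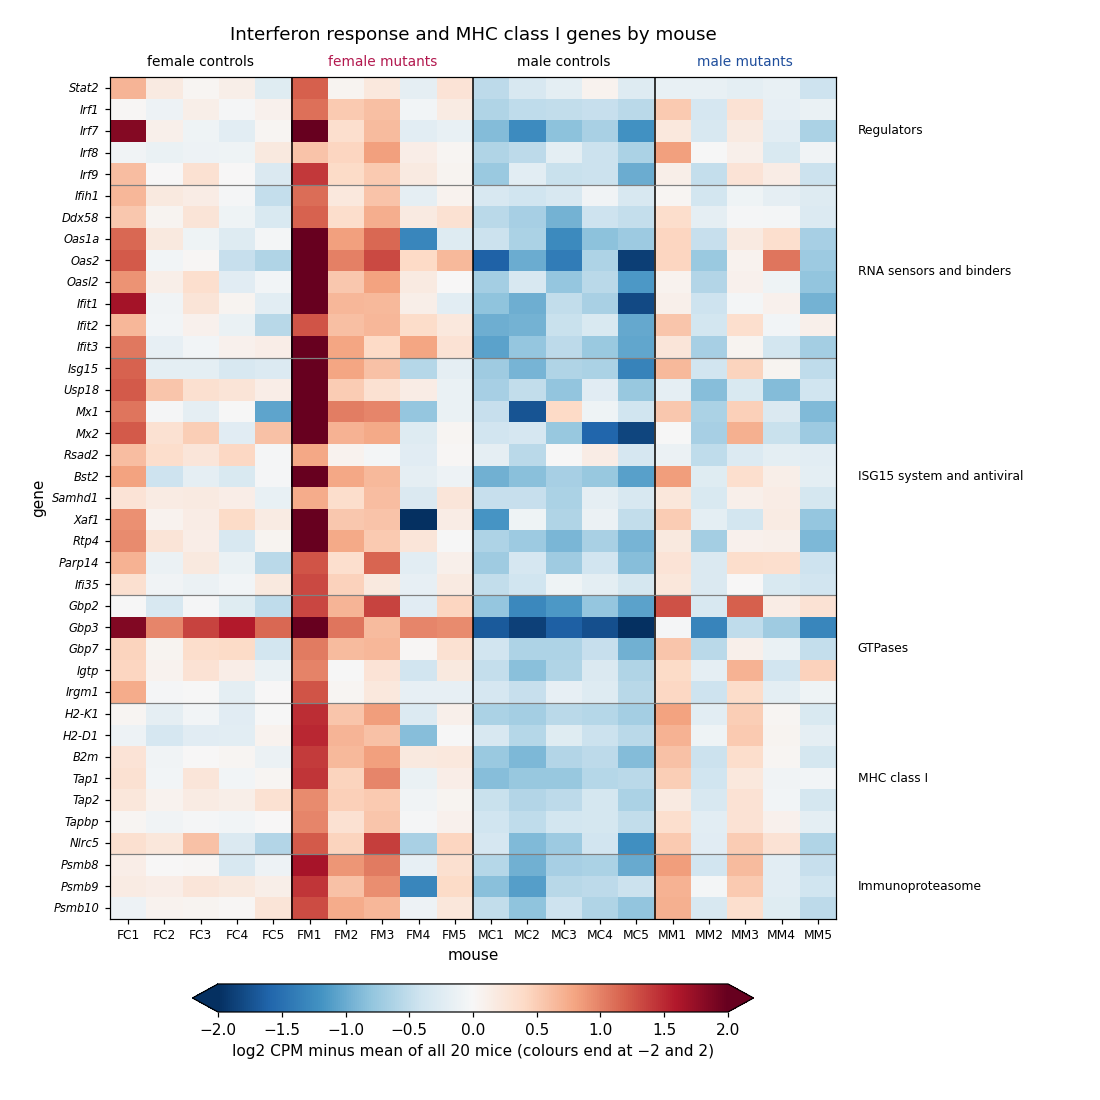
Heat map of the 39 genes (rows, by role) in the 20 mice (columns, by group), coloured by log2 CPM minus the mean of all 20 mice. FM1 is the darkest red column, FC1 stands out among female controls in the upper rows, the male control columns are mostly blue, and the *Gbp3* row is red in all 10 females and blue or white in all 10 males.

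Mutant kidneys of both sexes were first compared with controls together, within sex and litter. Of the 39 genes, 23 rose, none fell and 16 did not pass the test at an adjusted p under 0.01, whereas 15.4% of all 15355 genes passed it and 9.82% rose. The median log2 fold change was 0.56 over the 39 genes and -0.01 over all genes, and 38 of the 39 lay above 0, against 47.2% of all genes. No member fell at an unadjusted p under 0.05 either, and DESeq2 called 25 higher (12.1% of all genes) and none lower. By role, 4 of 5 regulators, 6 of 8 RNA sensors and binders, 4 of 11 antiviral genes, 2 of 5 GTPases, 5 of 7 class I genes and 2 of 3 immunoproteasome subunits rose. *Oas2* (log2 fold change 1.31) and *Gbp2* (1.30) changed the most, followed by *Bst2* (0.93), *Psmb8* (0.89) and *Isg15* (0.88). The number that rose was 14 without MM1 or without the litter term, and 14 of the 23 passed the test in all 20 fits that left out 1 mouse. Among all genes 1099 of 15341 rose without MM1 and 1611 of 15355 without the litter term.

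Markers of leukocytes and of other cell types changed as well, some of them upward and some downward. In the same comparison 8 of 10 markers of macrophages and dendritic cells and 4 of 4 pan-leukocyte markers rose, with medians of 1.55 and 1.02 on the log2 scale. The summed CPM of the 10 macrophage and dendritic cell markers was 101 to 114 in male controls, 152 to 370 in male mutants, 132 to 166 in female controls and 133 to 507 in female mutants. Markers of T cells (6 tested) and NK cells (5 tested) had summed levels of at most 21.98 and 8.38 CPM and median log2 fold changes of 0.95 and 0.46, with adjusted p of 0.0236 (*Cd8b1*) or more. Of the markers of fibroblasts 2 of 5 rose (median 0.42), and of those of B and plasma cells 1 of 5 (median 0.55). All 3 markers of the loop and distal tubule and all 3 of podocytes fell, with medians of -0.74 and -0.63, and 2 of 3 of the collecting duct fell (median -0.30). None of 5 endothelial and 6 proximal tubule markers passed the test, with medians of -0.12 and -0.20. No listed marker was at 0 throughout a group. The part of any of these cells in the rise of the 39 genes was not tested.

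Among the regulators, *Irf8*, *Irf1*, *Irf7* and *Irf9* rose and *Stat2* did not pass the test. *Irf8* directs the development of monocytes and dendritic cells. It was at 22.5, 21.4, 22, 22.2 and 26.8 CPM in FC1 to FC5 and at 35.0, 31.8, 41.7, 25.7 and 24.3 CPM in FM1 to FM5. In males it was at 15.4, 16.3, 20.6, 17.5 and 15.1 CPM in MC1 to MC5 and at 41.6, 23.3, 25.3, 19.0 and 22.5 CPM in MM1 to MM5. FC5 was above FM4 and FM5, and MC3 was above MM4, so the groups overlapped in both sexes. The joint log2 fold change was 0.56 ± 0.12 (SE, adjusted p = 0.00227).

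*Irf1*, the interferon gamma response factor that switches on class I and immunoproteasome genes, was at 29.6, 27.1, 31.4, 28.5 and 30.6 CPM in female controls and at 62.4, 41.9, 44.1, 27.8 and 32.3 CPM in FM1 to FM5. Male controls had 19.0, 20.4, 20.5, 21.1 and 19.8 CPM and male mutants had 41.8, 22.9, 35.4, 25.8 and 26.3 CPM. Every male mutant was above every male control, whereas FM4 was within the range of the female controls. The joint log2 fold change was 0.52 ± 0.12 (SE, adjusted p = 0.00281), and it did not pass the test without MM1 (adjusted p = 0.0111). *Stat2*, the partner of IRF9 in the ISRE complex, was at 43.0, 30.3, 27.5, 29.2 and 22.6 CPM in female controls and 61.4, 27.8, 31.2, 23.5 and 32.3 CPM in female mutants. It was at 18.7, 21.4, 23.4, 28.3 and 22.3 CPM in male controls and 24.1, 24.1, 23.4, 24.2 and 20.1 CPM in male mutants. The groups overlapped in both sexes, with FC1 and FM1 highest among the females, and the joint log2 fold change was 0.08 ± 0.08 (SE, adjusted p = 0.541).

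Among the RNA sensors and binders, 6 of 8 rose, and the exceptions were *Ifih1*, the gene of the MDA5 sensor, and *Oas1a*. *Oas2* makes 2′-5′ oligoadenylates that switch on RNase L. It was at 7.59, 3.06, 3.24, 2.26 and 2.05 CPM in FC1 to FC5 and at 24.6, 6.54, 8.10, 4.23 and 5.05 CPM in FM1 to FM5. The levels in males were 0.952, 1.53, 1.13, 2.03 and 0.772 CPM in controls and 4.30, 1.85, 3.34, 6.80 and 1.86 CPM in mutants. The groups overlapped only through FC1 in females and MC4 in males, which were the highest controls, and the joint log2 fold change was 1.31 ± 0.18 (SE, adjusted p = 5.75e-05).

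*Ifit2* belongs to a family of proteins that bind foreign RNA and block its translation. It was at 52.5, 31.6, 35.0, 30.3 and 22.3 CPM in female controls and at 79.5, 50.1, 52.4, 42.8 and 38.1 CPM in female mutants. Among males, controls had 16.8, 17.2, 24.3, 26.6 and 16.2 CPM and mutants 48.6, 25.6, 41.5, 31.9 and 35.6 CPM. In females FC1 alone reached the range of the mutants, and in males MC4 alone did. The joint log2 fold change was 0.73 ± 0.11 (SE, adjusted p = 0.000117), and *Ifit2* was the only member that passed the test in females alone. *Ddx58*, the gene of the sensor RIG-I, rose by 0.51 ± 0.09 (SE, adjusted p = 0.000623) on the log2 scale, and *Ifit3* and *Ifit1* rose by 0.64 and 0.61.

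Among the ISG15 system and other antiviral genes 4 of 11 rose (*Bst2*, *Isg15*, *Parp14* and *Rtp4*), and the log2 fold changes ran from -0.17 to 0.93. *Bst2* was at 50.1, 21.4, 25.1, 23.2 and 28.2 CPM in FC1 to FC5 and at 155, 48.9, 44.8, 25.4 and 26.6 CPM in FM1 to FM5. In males it was at 14.6, 16.0, 18.0, 16.8 and 13.4 CPM in controls and at 51.1, 24.3, 36.0, 31.1 and 24.9 CPM in mutants. The male groups did not overlap, whereas in females FM1 alone was above the control FC1. The joint log2 fold change was 0.93 ± 0.16 (SE, adjusted p = 0.000306).

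*Isg15* codes for a ubiquitin-like protein that is attached to other proteins. It was at 18.0, 6.82, 6.84, 6.26 and 6.46 CPM in female controls and at 69.4, 13.7, 11.8, 5.26 and 6.94 CPM in female mutants. Male controls had 4.76, 4.07, 5.11, 5.03 and 3.02 CPM and male mutants had 12.4, 6.02, 10.7, 8.19 and 5.48 CPM. All male mutants were above all male controls, while in females FC1 was higher than 4 of the 5 mutants. The joint log2 fold change was 0.88 ± 0.19 (SE, adjusted p = 0.00178). *Usp18*, which removes ISG15 and dampens signalling from the type I receptor, had a log2 fold change of 0.10 ± 0.14 (SE, adjusted p = 0.654). *Rsad2*, the gene of viperin, was the one member below 0, at -0.17 ± 0.09 (SE, adjusted p = 0.165).

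Among the GTPases, which act on the vacuoles of intracellular microbes, *Gbp2* and *Gbp7* rose. *Gbp2* was at 24.8, 20.0, 24.6, 21.0 and 17.5 CPM in FC1 to FC5 and at 63.4, 40.2, 63.6, 21.4 and 33.5 CPM in FM1 to FM5. The levels in males were 14.6, 10.1, 11.2, 14.6 and 11.8 CPM in controls and 60.3, 20.0, 57.3, 27.7 and 30.5 CPM in mutants. Apart from FM4 every mutant was above every control of its sex, and the joint log2 fold change was 1.30 ± 0.21 (SE, adjusted p = 0.000192). *Gbp7* was at 46.4, 35.4, 43.8, 44.6 and 26.4 CPM in female controls and at 70.2, 52.8, 54.2, 34.8 and 42.4 CPM in female mutants. It was at 26.1, 22.2, 22.2, 24.8 and 17.4 CPM in male controls and at 50.2, 23.5, 36.8, 31.2 and 24.6 CPM in male mutants. The groups of both sexes overlapped, and the joint log2 fold change was 0.46 ± 0.12 (SE, adjusted p = 0.00778). The call on *Gbp7* held in 5 of the 20 fits that left out 1 mouse, against 20 of 20 for *Gbp2*.

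Class I genes moved within a narrow range, from 0.32 for *Tap2* to 0.74 for *H2-K1* on the log2 scale. *B2m* was at 396, 315, 331, 339 and 303 CPM in FC1 to FC5 and at 871, 518, 580, 375 and 380 CPM in FM1 to FM5. Among males, controls had 196, 177, 219, 228 and 180 CPM and mutants 496, 245, 418, 336 and 258 CPM. Male groups did not overlap, and in females FM4 and FM5 were between the control FC1 and the other controls. The joint log2 fold change was 0.71 ± 0.12 (SE, adjusted p = 0.000235).

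*Tapbp* was at 116, 107, 112, 109 and 113 CPM in female controls and at 222, 139, 167, 112 and 120 CPM in female mutants. In males it was at 86.1, 79.3, 87.2, 88.7 and 80.6 CPM in controls and at 143, 98.0, 139, 120 and 98.6 CPM in mutants. Only FM4 fell within the range of its controls, and the joint log2 fold change was 0.44 ± 0.09 (SE, adjusted p = 0.00113). *H2-K1* and *H2-D1*, which code for the heavy chains, rose by 0.74 ± 0.15 (SE, adjusted p = 0.00133) and 0.65 ± 0.17 (SE, adjusted p = 0.00962). The call on *H2-D1* held in 4 of the 20 fits that left out 1 mouse. *Tap1*, one chain of the peptide transporter, rose by 0.63, while *Tap2*, the other chain, and *Nlrc5*, the class I transactivator, did not pass the test (adjusted p = 0.0195 and 0.0124).

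The immunoproteasome subunits replace 3 catalytic subunits of the standard proteasome. *Psmb8* was at 20.1, 18.4, 18.6, 14.7 and 17.0 CPM in FC1 to FC5 and at 57.8, 33.9, 37.7, 16.3 and 22.9 CPM in FM1 to FM5. Male controls had 12.3, 9.34, 11.6, 11.8 and 9.07 CPM and male mutants had 32.7, 14.1, 28.4, 15.9 and 13.3 CPM. FM4 again was the single mutant within the range of its controls, and the joint log2 fold change was 0.89 ± 0.17 (SE, adjusted p = 0.000918).

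*Psmb10* was at 18.5, 20.8, 20.6, 20.1 and 23.9 CPM in female controls and at 49.0, 33.3, 31.5, 18.5 and 23.3 CPM in female mutants. The levels in males were 14.1, 11.3, 14.8, 13.1 and 11.4 CPM in controls and 32.6, 15.8, 25.2, 16.8 and 13.7 CPM in mutants. The groups overlapped in both sexes through the mutants FM4, FM5 and MM5, and the joint log2 fold change was 0.61 ± 0.15 (SE, adjusted p = 0.00639). *Psmb9* had a similar log2 fold change of 0.61 ± 0.23 (SE) that did not pass the test (adjusted p = 0.0534). Of the standard subunits, the 2 with the smallest p had log2 fold changes of -0.11 for *Psmb6* (adjusted p = 0.375) and -0.10 for *Psmb7* (adjusted p = 0.310).

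The genes *Psmb9*, *Tap1*, *Psmb8* and *Tap2* are neighbours on chromosome 17, at chr17:34181987-34187764, chr17:34187553-34197225, chr17:34197721-34201454 and chr17:34203527-34216321 (GENCODE M21, GRCm38). *H2-K1*, *H2-D1* and *Tapbp* are on the same chromosome, which holds 7 of the 39 genes. *Psmb9* and *Tap1* lie on opposite strands and their annotated ends overlap. Whether the counts used strand is not given in the sources used here, so reads from the overlap cannot be assigned.

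The comparison was then made within each sex. In males 11 of the 39 genes rose and none fell, against 8.35% of all genes called and 5.22% higher, with a median log2 fold change of 0.65. In 14 of the 39 every male mutant was above every male control, against 8.74% of all genes. These were *Irf1*, *Irf7*, *Ddx58*, *Isg15*, *Bst2*, *Gbp2*, *Gbp3*, *Psmb8*, *Psmb9* and 5 class I genes (*H2-K1*, *H2-D1*, *B2m*, *Tap1* and *Tapbp*). At an adjusted p under 0.05 the number in males was 26, against 11.7% of all genes higher. The male count moved with single mice, from 0 without MC4 to 25 without MM2, while the median stayed between 0.42 and 0.77. The count over all genes moved as well, with 116 of 14677 higher without MC4 and 1272 of 14683 without MM2.

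In females 1 of the 39 genes rose (*Ifit2*, 0.64 ± 0.10 SE, adjusted p = 0.00863), against 0.612% of all genes called and 0.441% higher. The median log2 fold change of the members was 0.50, and 24 of the 39 were higher at an unadjusted p under 0.05, against 12.4% of all genes. In 0 of the 39 were all female mutants above all female controls, against 3.68% of all genes. FM4 was the library that stood apart and the mutant with the smallest kidneys for its body weight (0.836%). It was the lowest female mutant in 29 of the 39 genes, against 27.4% of all genes. Without FM4 the median was 0.66 and 7 members rose, while the number that rose among all genes went from 67 of 15194 to 729 of 15140.

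**Figure D2:**
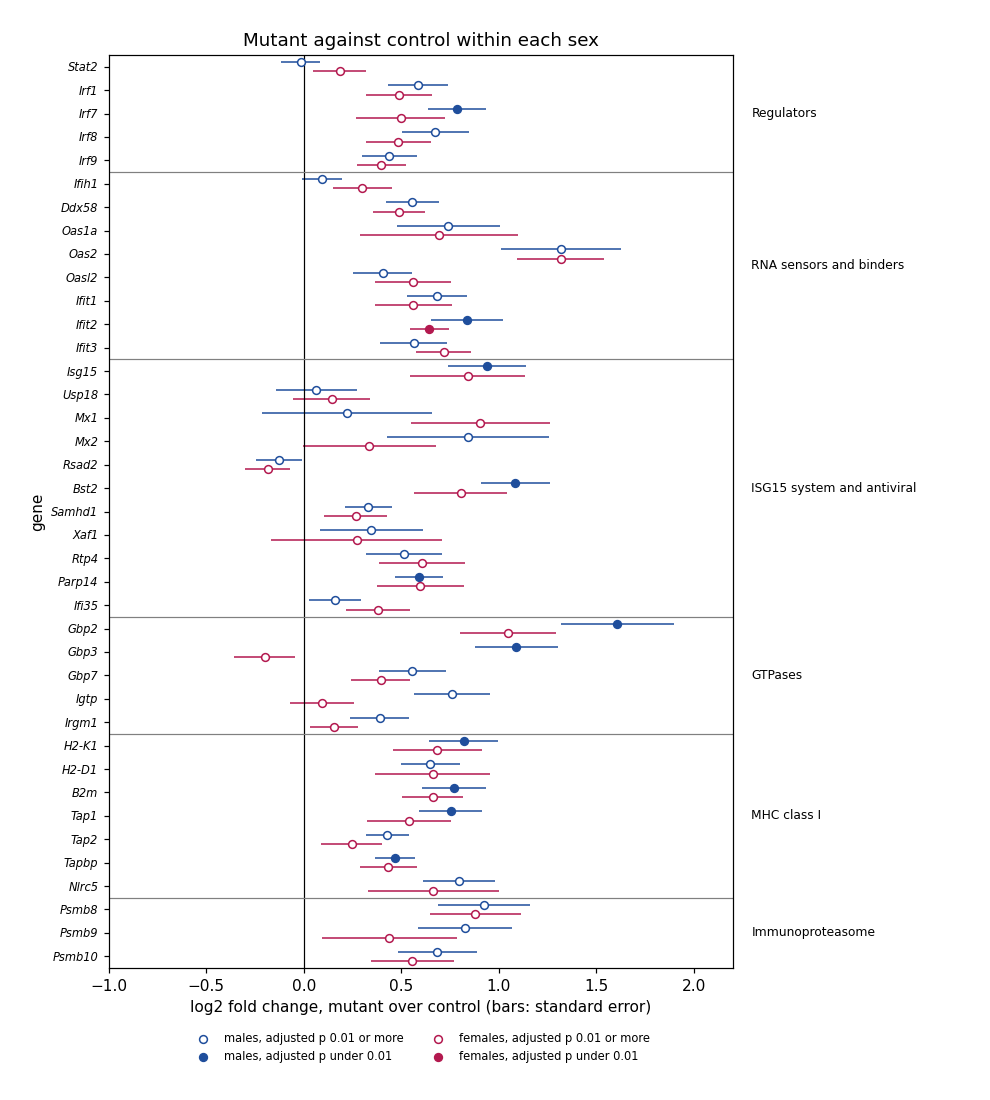
Log2 fold change of each gene, mutant over control, in males (blue) and females (red), with bars for the standard error and filled points at an adjusted p under 0.01. Most genes lie to the right of 0 in both sexes, 11 points are filled in males and 1 in females, and *Gbp3* lies on opposite sides of 0.

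Whether the response to *Pkd2* loss differed between the sexes was tested with a sex by genotype term. None of the 39 genes passed the test in edgeR (0% of 15355 genes did), 2 had an unadjusted p under 0.05 with a positive term (2.61% of all genes did) and DESeq2 called 1 (0.0716% of all genes with a positive term). Those with an unadjusted p under 0.05 were the GTPases *Gbp3* and *Igtp*, and the one called by DESeq2 was *Gbp3*. *Gbp3* was at 117, 63.8, 83.0, 97.1 and 71.6 CPM in FC1 to FC5 and at 155, 68.2, 50.0, 63.3 and 62.2 CPM in FM1 to FM5. Among males, controls had 9.95, 8.71, 10.4, 9.50 and 7.91 CPM and mutants 31.7, 12.9, 22.7, 19.6 and 13.0 CPM.

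Every male mutant was above every male control in *Gbp3*, and the female groups overlapped. The log2 fold change was 1.09 ± 0.21 (SE, adjusted p = 0.00522) in males and -0.20 ± 0.16 (SE, adjusted p = 0.538) in females. The sex by genotype term was 1.32 ± 0.29 (SE, adjusted p = 0.276), and it ranged from 0.91 to 1.51 over the fits that left out 1 mouse. *Igtp*, an immunity-related GTPase that was named for this term after its value was seen, had a log2 fold change of 0.76 ± 0.19 (SE) in males and 0.09 ± 0.16 (SE) in females, and the term was 0.70 ± 0.27 (SE, unadjusted p = 0.0195, adjusted p = 1).

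Males and females were then compared within each genotype. In control kidneys all 39 genes were lower in males than in females (51.6% of all genes were) and 29 passed the test, against 17.1% of all genes called and 8.6% lower. The median log2 difference, male minus female, was -0.72 over the members and -0.01 over all genes. In 28 of the 39 every male control was below every female control, against 13.7% of all genes. *Gbp3* differed most, with a mean of 9.29 CPM in male controls and 86.6 CPM in female controls, a log2 difference of -3.29 ± 0.14 (SE, adjusted p = 6.03e-09) that amounts to a 9.81-fold lower level in males.

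The next largest differences in controls were those of *Mx2* (-2.03), *Irf7* (-1.69), *Ifit1* (-1.66) and *Oas2* (-1.63), and the smallest were those of *H2-D1* (-0.27), *Tapbp* (-0.37) and *Ifi35* (-0.38). The large values have limits. *Mx2* had counts as low as 5, and FC1 lay far above the other female controls in *Irf7*, *Ifit1* and *Oas2*. Without FC1 the difference of *Oas2* was -0.75. By role the medians ran from -0.50 in the regulators to -1.14 in the RNA sensors and binders, with -0.65 in class I genes and -0.71 in the immunoproteasome. Within litters the median was -1.07 in litter A (3 males and 1 female), -0.47 in litter B (1 and 3) and -0.67 in litter C (1 and 1). Without FC1 the median was -0.56 and 12 members passed the test, while 662 of 14737 genes passed it as lower. Markers of several cell types were also lower in male controls. Of those of macrophages and dendritic cells 10 of 10 were below 0 and 4 passed the test (median -0.49), and all 5 endothelial, all 3 podocyte and all 3 loop and distal tubule markers passed it as lower (medians -0.48, -0.61 and -0.46). Proximal tubule markers did not go this way: 3 of 6 passed the test as higher in male controls and 0 as lower (median 0.23). Their summed CPM was 13891 to 15039 in male controls and 10423 to 11628 in female controls. The part of any of these cells in the difference of the 39 genes was not tested.

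In mutant kidneys all 39 genes were again lower in males (53.7% of all genes were), with a median log2 difference of -0.64. Of these, 2 passed the test (*Gbp3* and *Ifit3*), against 5.17% of all genes called and 1.69% lower, and 9 did at an adjusted p under 0.05 (5.59% of all genes lower). In 3 of the 39 (*Gbp3*, *Ifit3* and *Usp18*) every male mutant was below every female mutant, against 5.27% of all genes. The log2 difference was -2.02 ± 0.26 (SE, adjusted p = 0.000778) for *Gbp3* and -1.30 ± 0.26 (SE, adjusted p = 0.00944) for *Ifit3*. Without FM1 the median was -0.35. Within litters the median was -1.32 in litter A (2 males and 1 female, FM1), -0.27 in litter B (2 and 3) and -0.52 in litter C (1 and 1). Of the 39 genes, 8 were higher in males in litter B and 2 in litter C. The mutant and the control comparison use different mice and were fitted separately. Whether they differ was tested with the sex by genotype term given above. That term came from a fit of both sexes and both genotypes together, so it need not equal the difference between these comparisons.

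**Figure D3:**
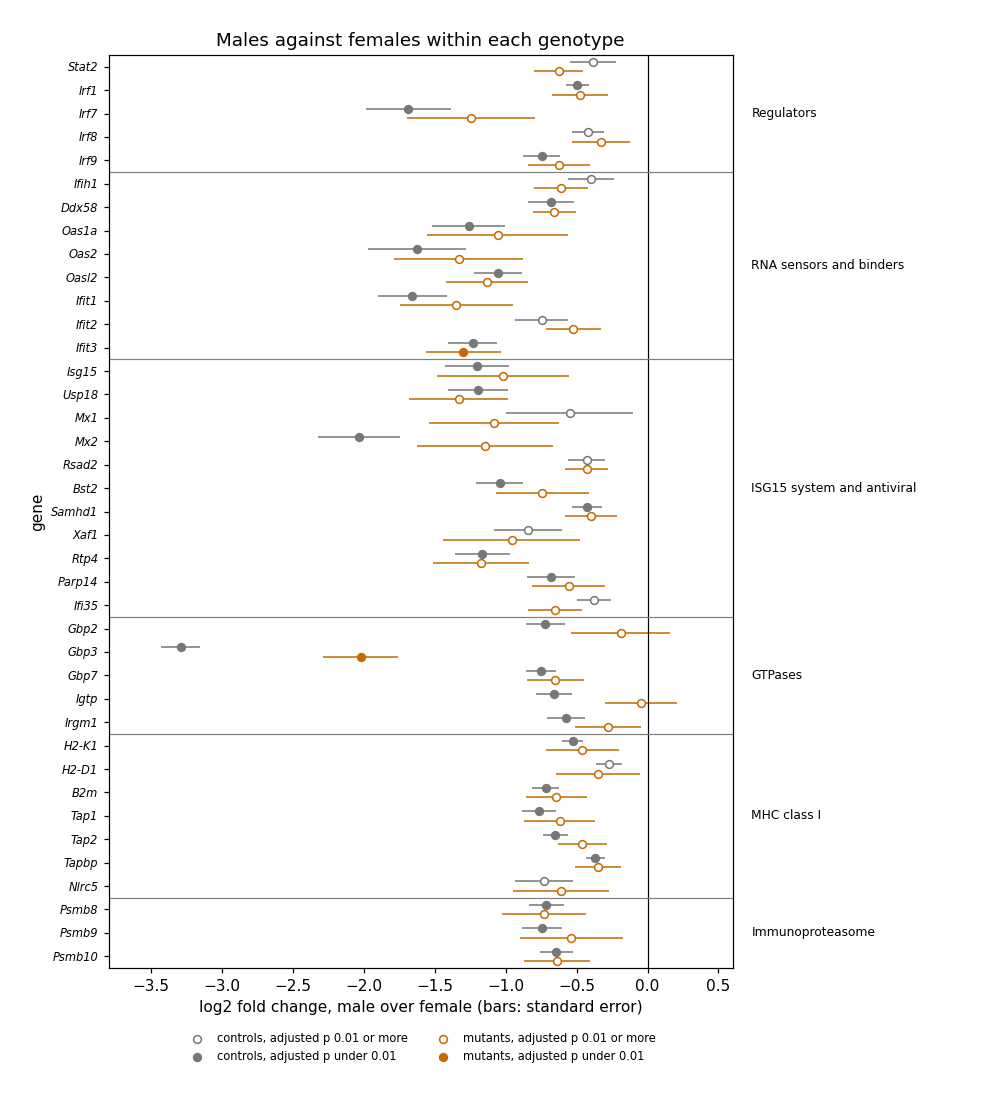
Log2 fold change of each gene, male over female, in controls (grey) and mutants (orange), with bars for the standard error and filled points at an adjusted p under 0.01. All points lie to the left of 0, 29 are filled in controls and 2 in mutants, and *Gbp3* is the farthest to the left in both.

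The 2 females of litter A carried the highest levels of their groups. FC1 was the highest of the 5 female controls in 32 of the 39 genes, against 16.0% of all 14820 genes, and FM1 was the highest of the 5 female mutants in 36, against 17.8%. The median log2 difference from the mean of the other 4 mice was 0.59 for FC1 and 1.13 for FM1, while over all genes it was within 0.01 of 0 for FC1 and 0.03 for FM1. *Irf7*, which amplifies type I interferon production, showed the largest difference in both: it was at 64.8 CPM in FC1 and at 15.5 to 19.3 CPM in the other female controls, and at 173 CPM in FM1 and at 15.4 to 28.0 CPM in the other female mutants. In FM1 this log2 difference, 3.10, was the largest of all 14820 genes.

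The 2 females differed in which roles stood out. In FC1 the median log2 difference was 0.95 in RNA sensors and binders and 0.91 in antiviral genes, but 0.16 in class I genes and within 0.01 of 0 in the immunoproteasome. In FM1 it was 1.72 and 2.00 in the first 2 roles, 0.94 in class I genes and 1.13 in the immunoproteasome. Members with an ISRE match in their promoter had a median of 0.66 in FC1 against 0.21 for those without, whereas in FM1 the medians were 1.10 and 1.13. FM1 did not have the highest summed level of macrophage and dendritic cell markers, which was 418 CPM in FM1 and 507 CPM in FM3, and FC1 had 166 CPM against 132 to 144 CPM in the other female controls. The summed level of NK cell markers was the highest of its group in both, at 8.38 CPM in FM1 against 1.12 to 4.71 CPM in the other female mutants and at 4.68 CPM in FC1 against 1.60 to 3.36 CPM in the other female controls. This list was named after the sums were seen, and its sums are low. The sums of T cell, B and plasma cell, neutrophil, plasmacytoid dendritic cell and pan-leukocyte markers were highest in FM3 among female mutants. In none of these lists was FC1 the highest female control. The part of any of these cells was not tested. Both FC1 and FM1 are the only females of their group in litter A, so litter and mouse cannot be told apart. The males of litter A did not move together. MM1 was the highest male mutant in 31 of the 39 genes (25.5% of all genes). MM2 was the highest in 0 (17.0% of all genes) and the lowest in 14 (18.6% of all genes). Among male controls MC4, of litter B, was most often the highest, in 15 of the 39 (20.0% of all genes).

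**Figure D4:**
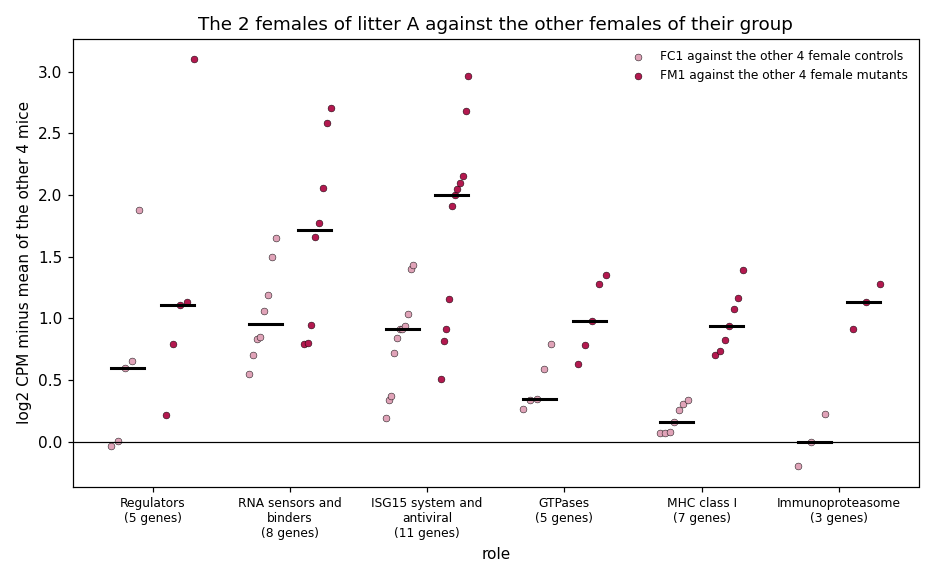
Log2 CPM of each gene in FC1 and FM1 minus the mean of the other 4 mice of the same group, by role, with 1 point per gene and a bar at the median. FC1 is raised mainly in the RNA sensors and binders and antiviral genes (medians 0.95 and 0.91) and hardly in class I genes (0.16), whereas FM1 is raised in every role.

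Within litters, the median log2 difference of the members between mutants and controls was 1.10 in litter A, 0.34 in litter B and 0.09 in litter C in females, which rest on 1, 3 and 1 mice of each genotype. In males it was 0.68 in litter A, 0.63 in litter B and 0.41 in litter C, from 2 mutants and 3 controls, 2 and 1, and 1 and 1. All 6 medians were above 0. Without FC1 and FM1, an alternative chosen after these values were seen, 16 of the 39 genes rose in the comparison of both sexes with a median of 0.50. Of all genes 1302 of 15287 rose in that fit. In females the median was 0.34 and the smallest adjusted p of a member was 0.0348.

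The relation to kidney size was examined in the 10 mutants as the slope of the log2 level on KBW, with sex as a term. The slope was positive for all 39 genes, against 45.2% of 14865 genes, with a median of 1.39 per percentage point of KBW over the members and -0.06 over all genes. None passed an adjusted p of 0.01 in edgeR (0% of all genes did), 31 had an unadjusted p under 0.05 (11.5% of all genes with a positive slope), and DESeq2 called 10 (2.9% of all genes with a positive slope). At an adjusted p under 0.05 there were 9 of 39, against 1.96% of all genes with a positive slope: *Irf1*, *Ifit2*, *Gbp2*, *Gbp7*, *H2-K1*, *B2m*, *Tap1*, *Psmb8* and *Psmb10*. With groups of sex and litter in place of sex alone it was 5, and the smallest adjusted p was 0.0234 (*Gbp2*). With sex as the term, the number was 0 to 10 when single mice were left out, and 0 without MM1, FM3, FM4 or FM5. How many of all genes passed 0.05 in these other fits was not counted, so these numbers have no share beside them. At an unadjusted p under 0.05 in either direction, 3274 of 14865 genes passed with the sex term and 2401 with groups of sex and litter. Without single mice it was 2380 of 15111 (without MM1) to 3456 of 15130 (without MM4).

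*Gbp2* had the smallest p, with a slope of 2.09 ± 0.28 (SE, adjusted p = 0.0271). With its levels given above, the 5 female mutants had the same order for *Gbp2* as for KBW, and so did the 5 male mutants. In females FM1 and FM3 were close, at 63.4 and 63.6 CPM. This order is no separate support, because *Gbp2* was picked by its slope in the same mice. *Nlrc5* in females and *Irf1*, *Ifit2*, *Irgm1* and *Tap1* in males also had the order of KBW. The slope was 1.27 ± 0.29 (SE, adjusted p = 0.0440) for *B2m* and 1.79 ± 0.37 (SE, adjusted p = 0.0358) for *Psmb8*. The largest slope, 2.50 ± 0.78 (SE, adjusted p = 0.0958), was that of *Mx1*, a low gene that was at 7.52, 3.30, 3.19, 0.863 and 1.41 CPM in FM1 to FM5 and at 2.32, 0.957, 2.23, 1.25 and 0.790 CPM in MM1 to MM5. In female controls *Mx1* was at 3.43, 1.53, 1.36, 1.55 and 0.684 CPM, and in male controls at 1.10, 0.381, 2.10, 1.46 and 1.16 CPM, so all 4 groups overlapped. *Stat2* had the smallest slope, 0.43 ± 0.38 (SE, adjusted p = 0.541).

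The slope depended on the sex term. Mean KBW was 1.18% in female and 1.68% in male mutants, while the members were higher in females, and without the sex term 24 of the 39 slopes were positive, with a median of 0.11. Over the 10 mutants pooled, Pearson's r between log2 CPM and KBW had a median of 0.12 over the members and 0.03 over all genes, Spearman's rho had a median of 0.10 over the members, and the smallest adjusted permutation p of a member over 14865 relations was 0.407 for r and 0.461 for rho. Without MM1 and FM4, the mice farthest from the median KBW, the median r of the members was -0.12. With 5 mutants of each sex, no correlation is given within a sex. The summed level of macrophage and dendritic cell markers was 133 CPM in FM4, 190 in FM5, 293 in FM2, 418 in FM1 and 507 in FM3, in order of KBW, and 152, 240, 163, 239 and 370 CPM in MM2, MM4, MM5, MM3 and MM1. The part of these cells in the slopes was not tested.

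**Figure D5:**
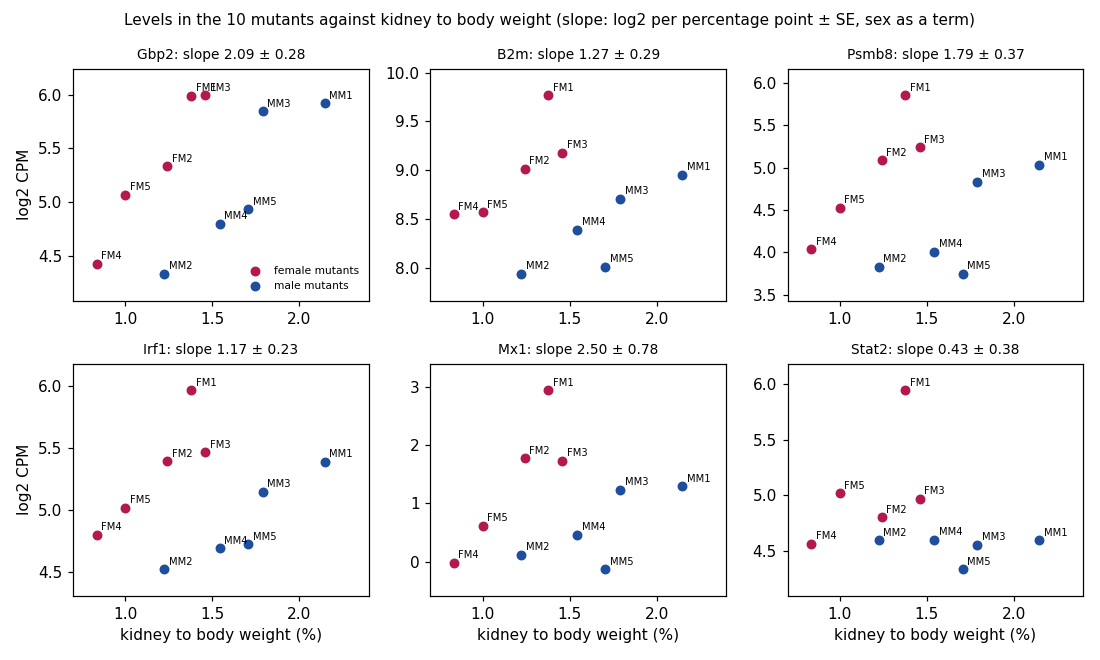
Log2 CPM of 6 members against KBW in the 5 female mutants (red) and 5 male mutants (blue), with the slope and its standard error from the fit with sex as a term. *Gbp2*, the member with the smallest p of the slope (2.09), has the order of KBW within each sex, with FM1 and FM3 nearly level. *Stat2* has a slope of 0.43 with FM1 far above the rest.

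Other genes of the pathway were listed by function. Of 8 interferon genes, 7 (*Ifnb1*, *Ifna1*, *Ifna2*, *Ifna4*, *Ifne*, *Ifnl2* and *Ifnl3*) had no count in any mouse, which allows at most 0.151 to 0.259 CPM per library (3 counts, counting error only). *Ifng* had at most 0.406 CPM and no count in 5 mice. Of the 6 receptor genes 5 rose in the comparison of both sexes (9.82% of all genes did), with *Ifngr2* at 0.63 ± 0.14 (SE, adjusted p = 0.00198) and *Ifngr1* at 0.55 ± 0.09 (SE, adjusted p = 0.000359).

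Of 8 negative regulators, *Socs3*, which blocks JAK kinases, rose by 2.36 ± 0.33 (SE, adjusted p = 5.19e-05), and *Trim24*, a repressor, fell by 0.23 on the log2 scale. Over all genes 9.82% rose and 5.57% fell in this comparison. Of 18 tested genes of nucleic acid sensing 4 rose and none fell, with a median of 0.16 and 15 above 0. They were led by *Tmem173*, the gene of STING, at 1.57 ± 0.22 (SE) and *Zbp1*, a sensor of Z-form nucleic acid, at 1.19 ± 0.25 (SE). Of 44 other tested interferon-stimulated genes 15 rose and none fell, with a median of 0.38, led by the chemokines *Cxcl10* (1.49) and *Cxcl9* (1.15). Of 11 other tested interferon-inducible GTPases 6 rose, with a median of 0.71, led by *Tgtp1* (1.54) and *Gbp8* (1.11).

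Of 19 other tested class I and peptide loading genes 5 rose (9.82% of all genes did) and none fell, with a median of 0.22. *H2-M2*, a non-classical class I gene, was at 0 to 0.413 CPM in controls of both sexes and at 0.863 to 4.36 CPM in mutants, so that no mutant overlapped the controls. Its log2 fold change of 3.82 ± 0.41 (SE, adjusted p = 5.51e-06) rests on low counts in controls. *H2-T10*, another non-classical gene, rose by 0.89 ± 0.16 (SE).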

How the data were processed

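Whole-kidney RNA of 20 mice was sequenced, and the authors deposited raw read counts per gene. The submitters' notes name fastp 0.23.2, STAR 2.7.10b and mm10; the counting tool, annotation and strandedness are not given in the sources used here. The authors used DESeq2 for their own tests. Here the deposited counts were tested with edgeR 4.0.16 (quasi-likelihood, TMM, filterByExpr, limma 3.58.1, R 4.3.3), with litter as a term, on the mice of each comparison. Both sexes were fitted together with groups of sex and litter. The slope on KBW was fitted over the 10 mutants with sex as a term. P-values were adjusted by Benjamini-Hochberg over all genes tested, with a threshold of 0.01, and rest on the spread among mice. CPM used TMM library sizes, and log2 CPM a prior count of 2.

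Total counts were 11307741 to 19324073 per library. The scripts were tested on simulated data. Alternatives were DESeq2 1.42.0, its size factors, other filters, no litter term, a threshold of 0.05, all 20 mice in 1 fit and leaving out each mouse. Leaving out FC1 and FM1, or FM1 and FM4, was chosen after seeing the data. Genes were given mouse by mouse by a fixed rule: those of smallest p in each role, of smallest sex by genotype p, and of largest and smallest KBW slope. The 39 genes and the other lists were chosen with earlier results of these data known. The list of signalling kinases and STAT genes is not reported here.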

Additional observations from a re-analysis of the deposited data

Results flagged for a closer look

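In 28 of the 156 sets of 5 mice (39 genes in 4 groups), 1 mouse lay apart from the other 4, with a gap to the nearest mouse of over 0.710 of the range of the group. Chance would flag about 1 in 20 sets, or 7.8 of 156, if the sets were independent and the values normal. The 39 genes were measured in the same mice and CPM were used without logs, so 28 cannot be set against 7.8. FM1 was high among female mutants in 16 genes. The gap was 0.920 of the range for *Irf7*, 0.768 for *Stat2*, 0.754 for *Irf9*, 0.810 for *Oas2*, 0.785 for *Oasl2*, 0.900 for *Ifit1* and 0.853 for *Ifit3*. It was 0.869 for *Isg15*, 0.864 for *Usp18*, 0.808 for *Mx2*, 0.771 for *Rsad2*, 0.819 for *Bst2*, 0.756 for *Xaf1*, 0.842 for *Rtp4*, 0.826 for *Gbp3* and 0.820 for *Irgm1*. FC1 was high among female controls in 8 genes, with 0.950 for *Isg15*, 0.922 for *Irf7*, 0.853 for *Ifit1*, 0.840 for *Irgm1*, 0.823 for *Ifit3*, 0.785 for *Oas2*, 0.777 for *Oas1a* and 0.764 for *Bst2*. The other 4 were *Stat2*, low in MM5 (0.809), *Irf8*, high in FC5 (0.796) and in MM1 (0.722), and *Ifih1*, high in MC4 (0.768). No class I or immunoproteasome gene was among them.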

How the results depend on the processing

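No paired analysis was possible because the labels give no numbers that pair mice across groups; litter was a term of the fits. The median log2 fold change of the 39 genes kept its sign under every alternative run for the mutant and control comparisons within each sex and together and for both sex comparisons. Counts of genes that passed the test moved more, among the members and among all genes, and the cause was not tested. In males the 11 became 26 at 0.05, 24 with DESeq2, 19 with no filter and 4 with all 20 mice in 1 fit, and 0 to 25 without single mice (0 without MC4). Over all genes, the 768 of 14706 that were higher became 1723, 1284, 1038 of 19162 and 636 of 15146 in the same order. In females the 1 became 5 at 0.05, 6 with DESeq2, 2 with no filter, 0 with no litter term, with all 20 mice or without FC1 and FM1, 3 without FM1 and FM4, and 0 to 7 without single mice. Across all genes, the 67 of 15194 that were higher became 585 at 0.05, 668 with DESeq2 and 171 of 19367 with no filter. They were 111 with no litter term, 567 of 15146 with all 20 mice, 4 of 15077 without FC1 and FM1 and 235 of 15500 without FM1 and FM4. In both sexes the 23 became 14 with no litter term, and 14 (without MM1) to 28 (without FM4). The 1508 of all 15355 genes that were higher became 1611 with no litter term, 1099 of 15341 without MM1 and 1943 of 15331 without FM4. The sex by genotype term had 1 with DESeq2, and its median ran from -0.14 (without MM1) to 0.26. Between male and female controls the 29 became 14 with all 20 mice, and 12 (without FC1) to 29. The 1270 of all 14760 genes that were lower in males became 913 of 15146 with all 20 mice and 662 of 14737 without FC1. Between male and female mutants the 2 became 9 at 0.05, 7 with DESeq2, 1 with no litter term, 9 with all 20 mice, and 1 to 2 without single mice. The 256 of all 15133 genes that were lower in males became 846, 733, 315 and 1020 of 15146 in the same order. For the slope on KBW the 0 became 9 at 0.05, 10 with DESeq2 and 0 to 1 without single mice. Of all 14865 genes 292 had a positive slope that passed at 0.05 and 431 with DESeq2. Without MM5, where the 1 member passed, 46 of 15120 genes had a positive slope that passed at 0.01. The median slope of the members, 1.39, became 0.11 with no sex term, 0.97 with groups of sex and litter, 0.95 without FM1 and FM4, and 0.92 (without FM1) to 1.67. The median r ran from -0.04 (without FM4) to 0.27, and was -0.12 without MM1 and FM4.

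The following directions turned. *Stat2* in males (-0.02) became 0.015 with no litter term and 0.067 with all 20 mice, and -0.072 to 0.082 without single mice. *Mx1* in males ran from -0.16 to 0.48. *Usp18* in both sexes became -0.017 without FC1 and FM1, and -0.018 to 0.16 without single mice. Between controls *Mx1* ran from -0.86 to 0.30 and *Stat2* from -0.61 to 0.026. With no sex term the slope on KBW was -0.47 for *Oas2*, -1.26 for *Gbp3* and -0.30 for *Stat2*, and that of *Stat2* was -0.050 without FM1 and FM4.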
